A study of Mus musculus with 16 samples.

Results

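Monoamine and acetylcholine receptor genes were followed as one group through the dorsal hippocampus. They were chosen by gene symbol alone, as the protein-coding genes for serotonin (Htr), dopamine (Drd), adrenergic (Adra1, Adra2, Adrb), muscarinic (Chrm) and nicotinic (Chrn) receptors. The annotation held 49 such genes, of which 48 had a row among the 35328 genes of the count table, and Chrng was not analysed here. A filter on low counts kept 37 of the 48 and 17830 of all genes for testing.

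Male C57Bl6/J mice, 8 to 9 weeks old at the start, drank water or caffeine at 0.3 g/L for 2 weeks. Home cage mice rested, and learning mice were trained for 3 days in the Morris water maze, with tissue taken 1 hour after the last trial. Each combination of condition and drink (4 groups, named below as for example learning water) had 4 poly(A) RNA-Seq libraries. The comparisons addressed how these mRNAs changed with training, how they changed with caffeine, and whether training acted differently under caffeine. The learning groups differed from the home cage groups in swimming, handling and stress as well as in what was learned, and these cannot be told apart.

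Serotonin, dopamine and noradrenaline reach the hippocampus in long axons from brainstem and midbrain nuclei, and acetylcholine reaches it largely from the medial septum. The transmitters are therefore made mostly by cells whose bodies lie elsewhere, while many of the receptors are made by local pyramidal cells, interneurons and glia. Most of the receptors act through G proteins: Gs raises cAMP, Gi lowers it and opens potassium channels, and Gq releases calcium from stores. The nicotinic receptors and the serotonin receptor that contains Htr3a are ion channels opened by the transmitter itself.

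Total counts per library ran from 23078094 to 49949281. Markers of dentate granule cells (8 of 8), CA1 pyramidal cells (7 of 7) and CA3 and CA2 pyramidal cells (8 of 8) were detected in every library. Home cage water replicate 8 stood apart for genes of serotonin neurons: Slc6a4, the serotonin transporter, was at 8.95 CPM (counts scaled to library size) there and between 0.0269 and 0.320 in the other 15 libraries. Choroid plexus markers also varied, with summed levels of 320 to 2436 CPM in home cage water and 122 to 523 CPM in the other 12 libraries. Home cage caffeine replicate 17 had the highest share of mitochondrial counts, 4.49% against 3.23 to 3.89% in the other 15. It lay far from the other libraries of its group, as did learning water replicate 24: the chi-square per degree of freedom between count profiles was 20.7 to 29.4 for replicate 17 and 20.1 to 30.4 for replicate 24, against 5.26 to 15.5 for the 18 within-group pairs without them. Values without these libraries are given beside the receptors they touch. In bulk tissue, fewer cells of a type and less RNA per cell cannot be told apart.

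The muscarinic receptor Chrm1, the main acetylcholine receptor of forebrain pyramidal cells, was the most abundant receptor mRNA of the group. Per kilobase of exon, the scale used here wherever genes are compared, its level was 46.6 ± 1.85 CPM (SD, n = 16 libraries). Adra1d, a Gq-coupled adrenergic receptor, followed at 27.4 ± 3.33 and Chrm3, a second Gq-coupled muscarinic receptor, at 12.2 ± 1.34 CPM per kilobase. The median of the 37 receptors was 1.82 CPM per kilobase against 3.55 over all tested genes with a length, and 10 of the 37 lay above that median. The plot of levels shows that each family, from its highest to its lowest member, spanned a wider range than the 4 groups of any member. Neighbouring members could lie closer than that. Htr7 (2.43) and Htr1b (2.32) differed less than the Htr4 group means, which ran from 2.65 in home cage caffeine to 4.11 in learning water.

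**Figure D1:**
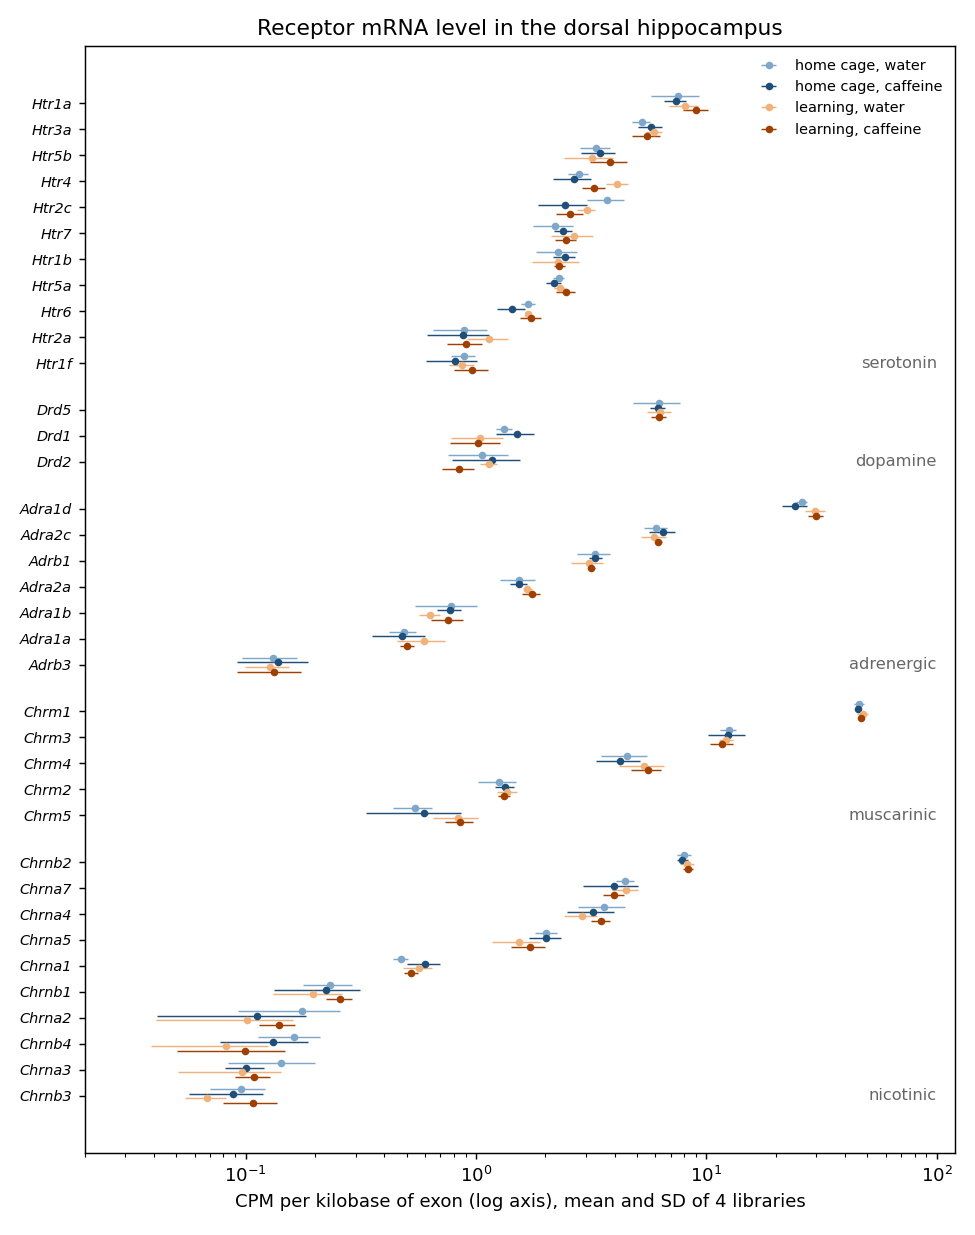
Level of the tested receptor mRNAs, in CPM per kilobase of exon on a log axis, grouped by family and sorted by level. Points are group means and bars SDs of 4 libraries; Chrm1 (46.6 over all 16 libraries) and Adra1d (27.4) sit highest, and Chrnb3 (0.0899) lowest.

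In the muscarinic, dopamine and adrenergic families a single gene held most of the summed level, and in the nicotinic family the leading gene held less. Chrm1 held 71.0% ± 1.70 of the summed muscarinic level per kilobase (SD, n = 16). Drd5, a Gs-coupled dopamine receptor, held 72.7% ± 4.66 of the dopamine sum, and Adra1d held 67.3% ± 3.64 of the adrenergic sum. Chrnb2, the beta subunit of the most common brain nicotinic receptors, held 43.2% ± 1.82 of the nicotinic sum. The serotonin family was spread more evenly: its top member Htr1a, a Gi-coupled receptor that quiets pyramidal cells, held 23.6% ± 2.87. With the length of the longest transcript in place of all exons, all 5 leading genes stayed first. Still, 8 members rose by more than their spread: Htr2c, Adra1a, Adrb1, Chrm3, Chrna5, Chrna7, Chrnb2 and Chrnb3. The longest transcript is never longer than all exons of its gene, so a level could only stay or rise.

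Among serotonin receptors, Htr1a (7.98 CPM per kilobase) was followed by Htr3a (5.60), a channel subunit known from interneurons. Htr5b (3.44), Htr4 (3.2), Htr2c (2.93), Htr7 (2.43), Htr1b (2.32) and Htr5a (2.30) formed a middle tier in which each differed from the next by less than the larger of their SDs over libraries. Htr6 (1.63), a Gs-coupled receptor, Htr2a (0.952), a Gq-coupled receptor, and Htr1f (0.880), a Gi-coupled receptor, were lower. The place of Htr2c in this order depends on the length used, since with the longest transcript it stood at 5.60 CPM per kilobase, level with Htr3a and above the middle tier.

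Among dopamine receptors, Drd5 stood at 6.21 CPM per kilobase. Drd1, the other Gs-coupled dopamine receptor, was at 1.22 and the Gi-coupled Drd2 at 1.05, a pair that lay within 1 SD of each other. Both are best known from the striatum, and 8 of the 9 striatum markers other than Drd2 were detected in every library, with Isl1 at 0 in at least 1 library. Drd5 shares 48.6% of its exon bases with the antisense gene Gm26560 on the other strand. The paper gives the union mode of the counting, but the strand setting is not given in the sources used here. How reads in the shared bases were counted is therefore not known. Among tested receptors the same holds for smaller shares of Adrb3 with Gm45470 (24.9%), Htr1b with D430036J16Rik (18.0%) and Chrnb2 with Adar (16.3%). It also holds for Adra1d with Gm14285 (7.7%), Chrm1 with Gm22820 (5.1%) and Chrm2 with 9330158H04Rik (2.3%).

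Among adrenergic receptors, Adra1d was followed by the Gi-coupled Adra2c (6.15 CPM per kilobase) and the Gs-coupled Adrb1 (3.2), the main forebrain beta receptor. The Gi-coupled Adra2a was at 1.62. The Gq-coupled Adra1b (0.733) and Adra1a (0.515) were lower, and Adrb3 (0.132), known from fat tissue, was near the floor. With the longest transcript Adra1a stood at 1.05 and passed Adra1b (0.745). Among muscarinic receptors, the Gi-coupled Chrm4 (4.90) and Chrm2 (1.32) and the Gq-coupled Chrm5 (0.705) followed Chrm1 and Chrm3.

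Among nicotinic subunits, Chrnb2 (8.11 CPM per kilobase) was followed by Chrna7 (4.22), which forms channels on its own, and by Chrna4 (3.29) and Chrna5 (1.82), which assemble with Chrnb2. Chrna1 (0.539) and Chrnb1 (0.227), subunits of the muscle receptor, were low. Chrna2 (0.132), a subunit known from one class of hippocampal interneuron, Chrnb4 (0.119), Chrna3 (0.112) and Chrnb3 (0.0899) were lowest. Chrna5, Chrna3 and Chrnb4 lie in a single cluster on chromosome 9 although Chrna5 stood far above the other two in level per kilobase. The 11 members under the filter were Htr1d, Htr2b, Htr3b, Drd3, Drd4, Adra2b, Chrna6, Chrna9, Chrna10, Chrnd and Chrne, of which Chrnd had no count in any library.

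The spread between libraries differed widely among receptors. The median coefficient of variation within groups ran from 3.47% for Chrm1 and 6.01% for Chrnb2 to 45.4% for Chrnb4 and 53.3% for Chrna2. It did not follow level alone, being 21.9% for Chrm4 and 19.9% for Chrna4 but 10.9% for the scarcer Chrna1. The median SE of the log2 fold change between 2 groups of 4 was 0.15 for the receptors and 0.10 for all tested genes in the comparison of learning with home cage under water.

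Under water, 1 of the 37 receptors changed with learning at an adjusted p under 0.1 (edgeR's quasi-likelihood test, Benjamini-Hochberg over all tested genes). It was Htr4, which rose. Over all tested genes, 0.97% changed. Under caffeine, 1 receptor changed, Adra1d, which also rose, where 5.28% of all tested genes changed. Averaged over both treatments, Htr4, Adra1d and Chrm5 rose and Drd1 fell, 4 of 37 where 14.5% of all tested genes changed. The median log2 fold change of the 37 was 0.00 under water, 0.05 under caffeine and 0.03 on average, against -0.01 over all tested genes in each of the 3 comparisons. At an unadjusted p under 0.05 there were 5 of 37 receptors under water, 6 under caffeine and 7 on average, where 11.8%, 18.8% and 25.5% of all tested genes passed.

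**Figure D2:**
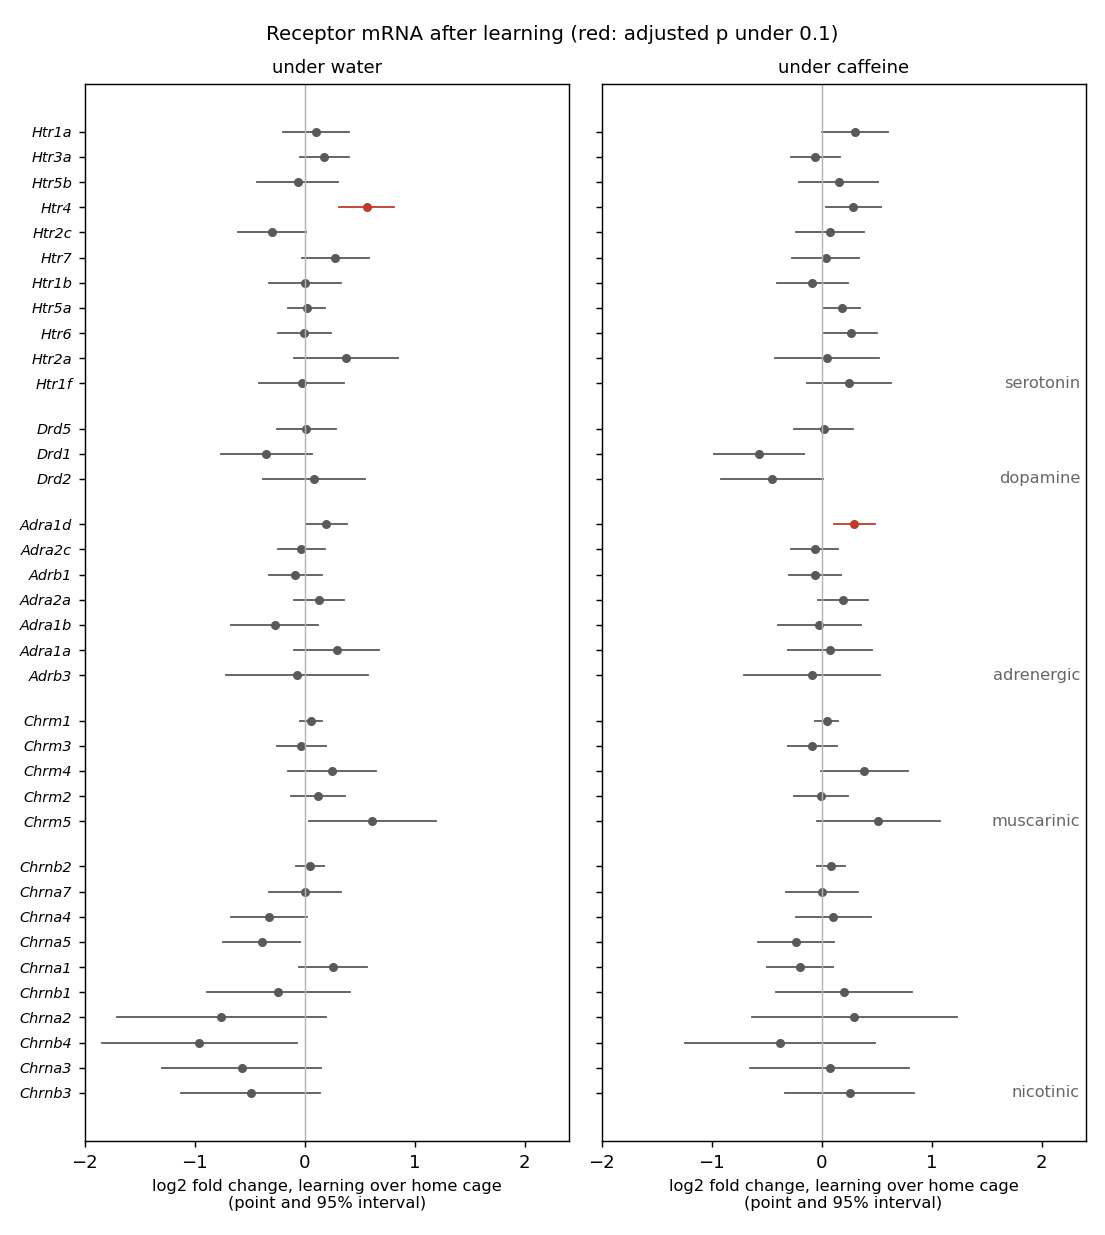
Log2 fold change of learning over home cage for the tested receptors, under water (left) and under caffeine (right), with its 95% interval; families run from top to bottom and red marks an adjusted p under 0.1. Htr4 under water (0.56) and Adra1d under caffeine (0.30) are red, and the widest intervals belong to the lowly expressed nicotinic subunits.

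Htr4 (ENSMUSG00000026322, mm10 chr18:62324204-62496577, plus strand) encodes a Gs-coupled serotonin receptor found on hippocampal pyramidal cells. In home cage water its levels were 13.1, 15, 14.4 and 12.1 CPM, and in learning water they were 17.5, 19.3, 22.7 and 21.2 CPM. All 4 learning libraries lay above all 4 home cage libraries. The log2 fold change was 0.56 (SE 0.12, adjusted p = 0.0496 with edgeR). Under caffeine the levels were 12.3, 12.0, 16.6 and 11.2 CPM in the home cage and 15.7, 15.8, 14 and 18.3 CPM after learning, and the groups overlapped through home cage caffeine replicate 14 at 16.6 CPM. There the log2 fold change was 0.29 (SE 0.12, adjusted p = 0.203 with edgeR). The difference between the 2 learning responses was itself -0.27 (95% interval -0.63 to 0.08, adjusted p = 1.0 with edgeR), so a weaker response under caffeine was not shown.

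The Htr4 call under water depended on single libraries. Without home cage water replicate 11 or 20 the adjusted p with edgeR was 0.118 or 0.185, and without learning water replicate 33, 36 or 38 it was 0.117, 0.171 or 0.105. Across all 16 fits that left out 1 library the log2 fold change stayed between 0.50 and 0.63, and without replicate 8, the library with the serotonin-neuron genes, it was 0.63, as it was without learning water replicate 24 (adjusted p = 0.0385 with edgeR). Averaged over both treatments, the log2 fold change of Htr4 was 0.43 (SE 0.08, adjusted p = 0.00602 with edgeR), and each of the 16 fits without a library called it.

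**Figure D3:**
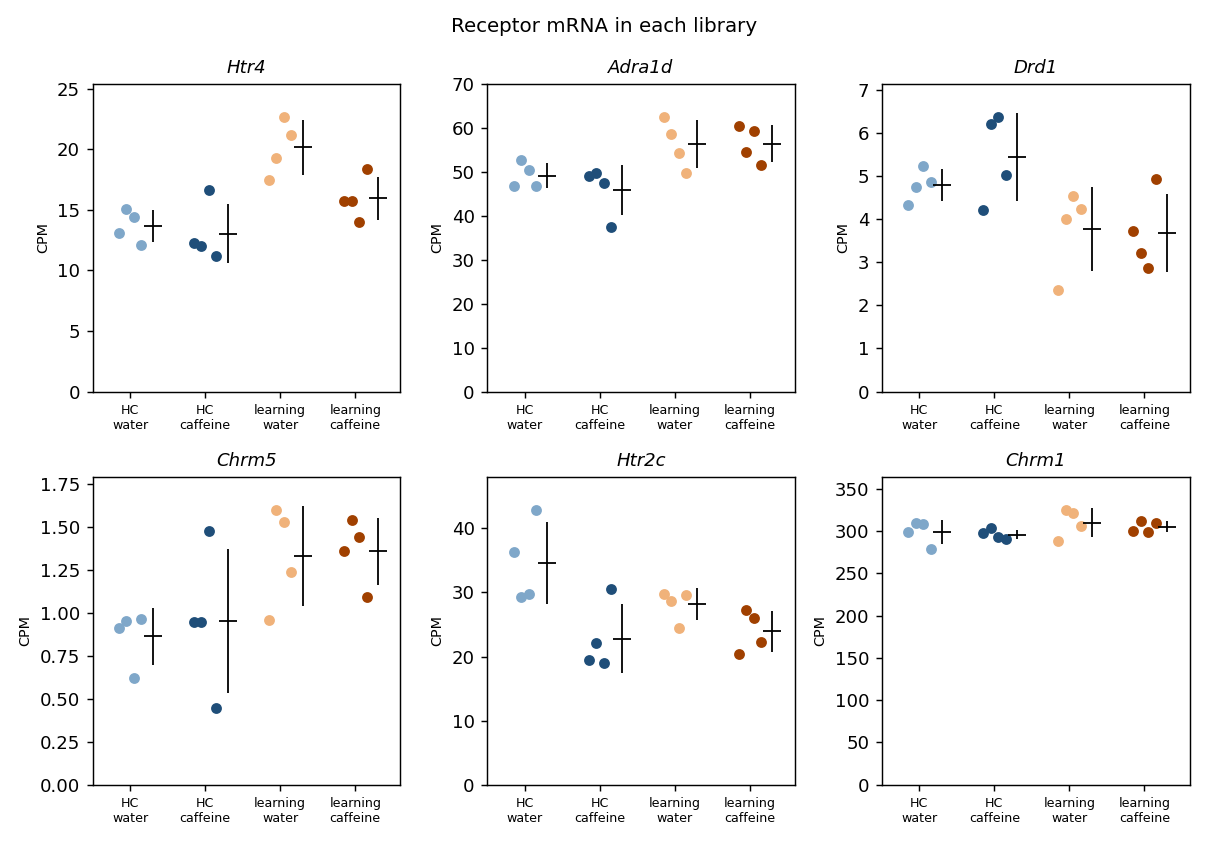
Level of 6 receptor mRNAs in each of the 16 libraries, in CPM, with the group mean and SD of 4 libraries beside the points. Htr4 in learning water (17.5 to 22.7) lies above every home cage library, while Chrm1 stays between 278 and 325 CPM throughout.

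Adra1d (ENSMUSG00000027335, mm10 chr2:131545850-131562283, minus strand) encodes a Gq-coupled receptor for noradrenaline. Under caffeine its levels were 49.1, 49.8, 47.6 and 37.6 CPM in the home cage and 60.6, 54.6, 59.3 and 51.6 CPM after learning. The 4 learning libraries lay above the 4 home cage libraries, of which replicate 17, the library that stood apart, was lowest. The log2 fold change was 0.30 (SE 0.09, adjusted p = 0.0782 with edgeR). Under water the levels were 46.9, 52.7, 50.4 and 46.9 CPM in the home cage and 62.7, 58.6, 54.4 and 49.8 CPM after learning, with an overlap through learning water replicate 38. There the log2 fold change was 0.20 (SE 0.09, adjusted p = 0.390 with edgeR), and the difference between the responses was 0.10 (95% interval -0.16 to 0.36).

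Without home cage caffeine replicate 17 the log2 fold change of Adra1d under caffeine was 0.22 (adjusted p = 0.186 with edgeR). Without learning caffeine replicate 22 or 30 it was 0.28 in either case (adjusted p = 0.141 or 0.191 with edgeR). The average over both treatments was 0.25 (SE 0.06, adjusted p = 0.0222 with edgeR), called in all 16 fits without a library.

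Drd1 (ENSMUSG00000021478, mm10 chr13:54051183-54055705, minus strand) encodes the Gs-coupled dopamine receptor of striatal output neurons, which granule cells of the dentate gyrus also use. Its levels under water were 4.33, 4.75, 5.24 and 4.86 CPM in the home cage and 2.36, 4.02, 4.54 and 4.23 CPM after learning. Under caffeine they were 4.22, 6.20, 6.39 and 5.02 CPM in the home cage and 3.73, 3.21, 2.87 and 4.94 CPM after learning. Learning water replicate 24 was the lowest of the 16, and home cage and learning libraries overlapped under both treatments. The average log2 fold change was -0.46 (SE 0.14, adjusted p = 0.0519 with edgeR). The responses under water (-0.35, SE 0.20, adjusted p = 0.512) and under caffeine (-0.57, SE 0.19, adjusted p = 0.132) missed the edgeR threshold singly. Without home cage water replicate 11 or learning caffeine replicate 30 the average was also lost (adjusted p = 0.101 or 0.106 with edgeR). Without learning water replicate 24 the average was -0.36 (adjusted p = 0.0599 with edgeR).

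Striatum markers moved with Drd1. Their summed level without Drd2 was 177 to 212 CPM in home cage water and 179 to 205 in home cage caffeine, against 156 to 179 CPM in learning water and 155 to 183 in learning caffeine. On average over both treatments, 8 of 8 tested markers other than Drd2 had a negative log2 fold change (median -0.21), as had 54.0% of all tested genes. Ppp1r1b and Penk, 2 of the 8, were called lower, where 14.5% of all tested genes were called. Many of these striatum markers are also made in the hippocampus, and their part in the Drd1 result was not tested. Drd5 had the highest level of the dopamine receptors counted here, with its antisense overlap unresolved. It was 25.6, 19.8, 18.8 and 14.5 CPM in home cage water and 16.8, 21.9, 21.6 and 18.7 CPM in learning water. In home cage caffeine it was 19.5, 21.1, 19.0 and 17.8 CPM, and after learning under caffeine 17.5, 20.7, 20.6 and 19.3 CPM. All 4 groups of Drd5 overlapped, and its average log2 fold change with learning was 0.01 (95% interval -0.17 to 0.20).

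Chrm5 (ENSMUSG00000074939, mm10 chr2:112479171-112480769, minus strand) encodes a Gq-coupled muscarinic receptor best known from midbrain dopamine neurons. It was scarce, at 16 to 72 raw counts per library. Its levels under water were 0.913, 0.956, 0.620 and 0.967 CPM in the home cage and 0.961, 1.60, 1.53 and 1.24 CPM after learning. Under caffeine they were 0.946, 0.948, 1.48 and 0.446 CPM in the home cage and 1.36, 1.54, 1.44 and 1.09 CPM after learning. The groups met at a single pair of libraries under water and overlapped through home cage caffeine replicate 14 under caffeine. The average log2 fold change was 0.56 (SE 0.19, adjusted p = 0.0759 with edgeR).

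The call of Chrm5 was lost in 10 of the 16 fits without a library. With edgeR the adjusted p was 0.10, 0.122 or 0.101 without home cage water replicate 6, 11 or 20, and 0.102 or 0.112 without home cage caffeine replicate 9 or 17. Without learning water replicate 33, 36 or 38 it was 0.137, 0.128 or 0.101, and without learning caffeine replicate 27 or 30 it was 0.109 or 0.124. The log2 fold change stayed between 0.45 and 0.72, with 0.45 without home cage caffeine replicate 17 and 0.64 (adjusted p = 0.0458 with edgeR) without learning water replicate 24.

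RefSeq promoter windows (GRCm38.p6, from 250 bases before to 50 bases after an annotated start) were found for 37 of the 49 receptors, 42 windows in all. Those of Drd1, which has a pair of starts, and of Chrm5, both called with learning, are shown. No window is shown for Htr4 or Adra1d, which were also called. Capitals mark the 50 bases from the RefSeq start onwards, and all 3 windows shown are on the minus strand. The single Chrm5 transcript of the GENCODE annotation used here does not hold the capital bases of its window, whereas those of the Drd1 windows lie in 2 and 1 of its 3 GENCODE transcripts.
Drd1, upstream start, chr13:54055609-54055908: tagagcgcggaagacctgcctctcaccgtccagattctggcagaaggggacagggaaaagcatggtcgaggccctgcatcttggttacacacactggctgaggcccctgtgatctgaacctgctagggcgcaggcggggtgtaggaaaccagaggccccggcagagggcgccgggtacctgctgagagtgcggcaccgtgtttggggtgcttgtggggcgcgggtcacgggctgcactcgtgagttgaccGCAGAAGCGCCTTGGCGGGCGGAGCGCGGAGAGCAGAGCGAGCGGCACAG
Drd1, downstream start, chr13:54054731-54055030: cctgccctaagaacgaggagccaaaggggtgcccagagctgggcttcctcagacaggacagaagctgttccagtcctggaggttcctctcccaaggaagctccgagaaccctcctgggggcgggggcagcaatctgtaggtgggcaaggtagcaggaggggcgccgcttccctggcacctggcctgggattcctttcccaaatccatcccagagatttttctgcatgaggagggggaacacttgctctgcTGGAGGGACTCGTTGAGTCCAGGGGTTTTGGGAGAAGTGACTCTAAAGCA
Chrm5, chr2:112480768-112481067: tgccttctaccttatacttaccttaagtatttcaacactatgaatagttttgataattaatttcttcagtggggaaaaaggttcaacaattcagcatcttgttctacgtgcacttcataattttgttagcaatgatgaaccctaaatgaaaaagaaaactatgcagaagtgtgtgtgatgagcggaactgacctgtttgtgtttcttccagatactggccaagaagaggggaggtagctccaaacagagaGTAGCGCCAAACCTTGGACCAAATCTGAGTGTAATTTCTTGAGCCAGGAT
The Drd1 windows held 65.7% and 59.3% G and C, the Chrm5 window 39.0%, and the median of all 32851 windows was 52.7%.

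The windows were searched on both strands for letters known from activity-regulated promoters. The full cAMP response element TGACGTCA was in 0 of 42 receptor windows and in 1.79% of all windows. Its core TGACG (or CGTCA), which the full element also contains, was in 6 of 42 (Adra2a, Adrb1, Chrna5, Chrnb1, Chrnb2 and Htr7) and in 20.8% of all. The EGR site GCGTGGGCG was in 1 of 42 (Htr7) and in 0.612% of all, and the AP-1 site (TGAGTCA or TGACTCA) in 2 of 42 (Adra1b and Chrna1) and in 5.20% of all. The E box CACGTG was in 3 of 42 and 7.15% of all, and the TATA letters TATAAA in 2 of 42 and 13.6% of all. None of these letters was in the Drd1 or Chrm5 windows printed above.

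By family, the serotonin receptors other than Htr4 gave no call in either learning comparison. Under caffeine, Htr1a (0.30), Htr6 (0.27) and Htr5a (0.19) had log2 fold changes with an unadjusted p under 0.05 but missed the adjusted threshold. With Htr4 these were 4 of 11 where 18.8% of all tested genes passed, and 9 of the 11 had a positive sign, as had 47.1% of all tested genes. Htr1a read 42.5, 36.7, 31.7 and 23.9 CPM in home cage water and 31.1, 41.0, 40.2 and 31.8 CPM in learning water. Under caffeine it read 30.9, 36.8, 35.1 and 29.0 CPM in the home cage and 38.6, 42.5, 46.0 and 34.8 CPM after learning, so that home cage and learning overlapped under both treatments. The summed serotonin receptor level was 32.8 ± 2.36 CPM per kilobase in home cage water, 31.8 ± 0.265 in home cage caffeine, 35.3 ± 2.51 in learning water and 35.0 ± 2.49 in learning caffeine (SD, n = 4).

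Of the muscarinic receptors, Chrm1 was the steadiest gene of the whole group. It read 298, 309, 308 and 278 CPM in home cage water and 297, 303, 293 and 290.3 CPM in home cage caffeine. After learning it read 288, 325, 321 and 306 CPM under water and 300.2, 312, 299 and 309.8 CPM under caffeine. The 4 groups overlapped, and its average log2 fold change with learning was 0.05 (95% interval -0.02 to 0.12). Chrm4 had an average of 0.32 (SE 0.13, adjusted p = 0.145 with edgeR), which DESeq2 called (adjusted p = 0.0938).

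The nicotinic subunits gave no call in any comparison with edgeR. Chrnb2 read 72.6, 63.6, 68.7 and 63.1 CPM in home cage water and 64.0, 75.3, 69.2 and 68.1 CPM in learning water, 67.7, 69.4, 65.1 and 61.4 CPM in home cage caffeine, and 65.0, 71.5, 72.2 and 70.6 CPM in learning caffeine. Its 4 groups overlapped, and its average log2 fold change with learning was 0.07 (95% interval -0.03 to 0.16). Under water 7 of 10 nicotinic genes had a negative sign (median -0.36), where 51.5% of all tested genes did, and under caffeine 3 of 10 (median 0.08), where 52.9% did. Chrnb4 (-0.96, SE 0.42) and Chrna5 (-0.39, SE 0.17) were the only ones among them with an unadjusted p under 0.05 under water, with adjusted p of 0.379 and 0.368 in edgeR. These were 2 of 10, where 11.8% of all tested genes passed.

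Medial habenula markers, listed because Chrna3 and Chrnb4 are abundant there, held 4 tested genes that are not receptors. With learning under water the median log2 fold change of these 4 was -0.87 and 3 of 4 were negative. Pou4f1, a transcription factor of habenula neurons, was called lower (adjusted p = 0.0948 with edgeR), where 0.97% of all tested genes were called. It was scarce, at 0.460 CPM in home cage water and 0.0823 CPM in learning water. Under caffeine the median of these 4 markers was -0.10 and none was called. The summed level of the 6 listed markers that are not receptors was 38.6 to 51.0 CPM in home cage water and 45.6 to 52.7 in learning water, most of it Nwd2, and the defining genes Chat and Slc18a3 were at 0 in at least 1 library each. The part of these markers in the nicotinic values was not tested.

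Sorted by signaling, the 8 Gs-coupled receptors had a median log2 fold change with learning of 0.07 on average over both treatments, with Htr4 called higher and Drd1 lower. The 10 Gi-coupled receptors had a median of 0.08 and no call, and the 8 Gq-coupled receptors a median of 0.12 with Adra1d and Chrm5 called higher. The 11 channel subunits had a median of -0.11 and no call. Over all tested genes the median was -0.01 and 14.5% were called. The 14 receptors with a single coding exon, where reads cannot come from different splice forms of the coding part, had a median of 0.05.

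Caffeine changed no receptor at an adjusted p under 0.1 with edgeR in the home cage, after learning or on average. It also changed no other gene: 0% of the 17830 tested genes were called in each of these comparisons. At an unadjusted p under 0.05 there were 2 receptors in the home cage (Chrna1 and Htr2c), where 3.57% of all genes passed. There were 2 after learning (Htr4 and Chrnb3), where 3.93% passed, and 2 on average (Htr4 and Htr2c), where 4.07% passed. DESeq2 called Htr2c in the home cage and on average, among 19 and 16 genes in all, and no receptor after learning.

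Htr2c (ENSMUSG00000041380, mm10 chrX:146962513-147197277, plus strand) encodes a Gq-coupled serotonin receptor that is most abundant in the choroid plexus epithelium and is also made by neurons. Its levels in the home cage were 36.2, 29.3, 29.7 and 42.9 CPM under water and 19.4, 22.1, 19.0 and 30.6 CPM under caffeine. The groups overlapped only through home cage caffeine replicate 17. The log2 fold change of caffeine over water was -0.60 (SE 0.15, adjusted p = 0.450 with edgeR). DESeq2 gave an adjusted p of 0.0785, and edgeR without the filter on low counts gave 0.0276. After learning the levels were 29.8, 28.7, 24.4 and 29.6 CPM under water and 20.4, 27.2, 26.0 and 22.2 CPM under caffeine, with a log2 fold change of -0.23 (SE 0.15, adjusted p = 0.999 with edgeR).

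Choroid plexus markers moved with Htr2c between the home cage groups. All 14 were detected in every library, and 14 of 14 had a negative log2 fold change of caffeine over water in the home cage (median -1.91), with 13 at an unadjusted p under 0.05 and none called. Their summed level was 320, 1203, 964 and 2436 CPM in home cage water replicates 6, 8, 11 and 20, and 202, 523, 272 and 240 CPM in home cage caffeine replicates 2, 9, 14 and 17. Replicate 20 of home cage water had both the highest marker sum and the highest Htr2c. Replicate 6 had the second highest Htr2c, 36.2 CPM, at a marker sum of 320 CPM, within the range of home cage caffeine. Without replicate 20 the log2 fold change of Htr2c was -0.48 (adjusted p = 0.940 with edgeR), and without replicate 8 it was -0.67. Without home cage caffeine replicate 17 it was -0.78 (adjusted p = 0.283 with edgeR). The part of choroid plexus tissue in this difference was not tested.

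**Figure D4:**
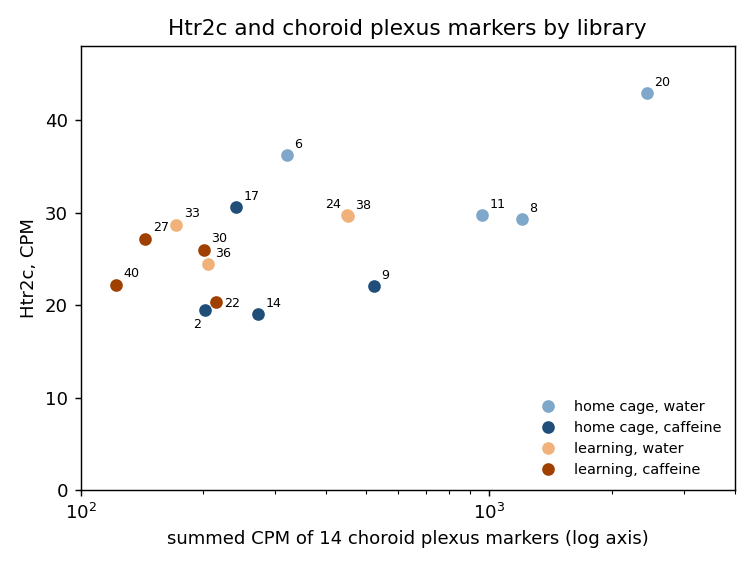
Htr2c level in CPM against the summed CPM of 14 choroid plexus markers on a log axis, 1 point per library, numbered by replicate. Home cage water replicate 20 is highest on both axes (42.9 and 2436), while home cage water replicate 6 has 36.2 CPM of Htr2c at a marker sum of 320.

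After learning, the smallest p for caffeine belonged to Htr4, whose learning libraries under water and under caffeine are given above. They met through learning caffeine replicate 40 (18.3 CPM) and learning water replicate 24 (17.5 CPM). The log2 fold change of caffeine over water was -0.34 (SE 0.12, adjusted p = 0.999 with edgeR). This comparison uses the same learning water libraries as the call of Htr4 under water.

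The learning response of no receptor, and of no gene in all (0%), differed between caffeine and water at an adjusted p under 0.1 in edgeR, and DESeq2 called no receptor. At an unadjusted p under 0.05 there was 1 receptor, Chrna1, where 3.63% of all tested genes passed. Chrna1 (ENSMUSG00000027107) encodes the alpha subunit of the muscle nicotinic receptor. It read 2.18, 1.98, 1.90 and 2.2 CPM in home cage water, 3.03, 2.84, 2.61 and 2.04 in home cage caffeine, 2.72, 2.05, 2.31 and 2.80 in learning water and 2.4, 2.33, 2.07 and 2.37 in learning caffeine. Home cage water was lowest and all groups overlapped with at least 1 other. The difference between the responses was -0.46 on the log2 scale (SE 0.20, adjusted p = 1.0 with edgeR).

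The genes that make, carry and break down these transmitters were followed as a list. Under water 14 of 16 tested members had a negative log2 fold change with learning (median -0.19), where 51.5% of all tested genes did. Th was the 1 member called, where 0.97% of all tested genes were called. Under caffeine 11 of 16 were negative (median -0.17), where 52.9% of all tested genes were. There Maoa was the 1 member called, where 5.28% of all tested genes were called. Th, the rate-limiting enzyme of dopamine and noradrenaline synthesis, read 1.27, 1.5, 0.965 and 0.752 CPM in home cage water and 0.320, 0.477, 0.233 and 0.391 CPM in learning water. Home cage caffeine read 0.412, 0.259, 0.511 and 0.614 CPM, and learning caffeine 0.586, 0.621, 0.702 and 0.464 CPM. Home cage water lay above the other 12 libraries, at 28 to 47 raw counts per library against 6 to 35.

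Under water the log2 fold change of Th with learning was -1.65 (SE 0.28, adjusted p = 0.0130 with edgeR), called in all 16 fits without a library. Under caffeine it was 0.38 (SE 0.29, adjusted p = 0.496 with edgeR). The difference between these responses was 2.03 (SE 0.40, adjusted p = 0.446 with edgeR), and that of caffeine over water in the home cage was -1.27 (SE 0.28, adjusted p = 0.337 with edgeR). These comparisons share the home cage water libraries. Maoa, a monoamine-degrading enzyme, read 43.2, 41.8, 41.2 and 41.9 CPM in home cage caffeine and 32.1, 35.7, 37.5 and 39.0 CPM in learning caffeine, with no overlap. Its log2 fold change was -0.22 (SE 0.06, adjusted p = 0.0741 with edgeR), and 6 of 16 fits without a library called it, with adjusted p up to 0.248 without learning caffeine replicate 22.

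**Figure D5:**
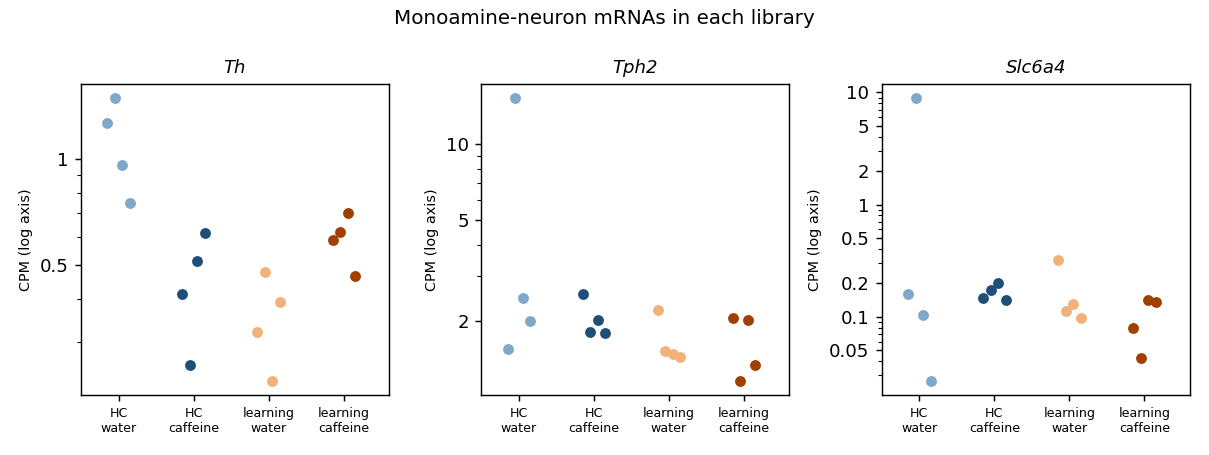
Level of Th, Tph2 and Slc6a4 in each of the 16 libraries, in CPM on a log axis. Th is highest in the 4 home cage water libraries (0.752 to 1.5), and home cage water replicate 8 stands alone for Tph2 (15.3) and Slc6a4 (8.95).

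Signaling partners of the receptors were also followed. Of 24 G protein and cAMP genes, 1 was called under water (Ppp1r1b, the dopamine-regulated phosphatase inhibitor) and none under caffeine, where 0.97% and 5.28% of all tested genes were. On average over both treatments 2 were called higher and 1 lower, 12.5% of the list against 14.5% of all tested genes. Ppp1r1b read 68.2, 56.5, 64.5 and 64.3 CPM in home cage water and 50.7, 51.4, 48.7 and 46.3 CPM in learning water, with no overlap. Its log2 fold change was -0.36 (SE 0.09, adjusted p = 0.0948 with edgeR); it is also one of the striatum markers. The call held in 5 of 16 fits without a library, those without home cage water replicate 8, home cage caffeine replicate 14 or 17, or learning caffeine replicate 27 or 40, and the highest adjusted p was 0.244 without home cage water replicate 20.

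Of 18 genes for receptor desensitization, including the RGS proteins that shorten G protein signals, none was called under water. Rgs16 was called under caffeine, where 5.28% of all tested genes were called. On average 1 was called higher and 1 lower (11.1% against 14.5% of all tested genes). Rgs16 read 5.55, 5.73, 5.79 and 5.72 CPM in home cage caffeine and 8.10, 9.14, 6.60 and 6.28 CPM in learning caffeine, with no overlap. Its log2 fold change was 0.40 (SE 0.12, adjusted p = 0.0954 with edgeR), called in 8 of 16 fits without a library and lost most clearly without learning caffeine replicate 27 (log2 fold change 0.30, adjusted p = 0.199 with edgeR). Of 11 chaperones and modulators of nicotinic and Htr3a receptors, none was called in either comparison by edgeR, with 0 and 1 at an unadjusted p under 0.05.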

How the data were processed

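Poly(A) RNA from the dorsal hippocampus was sequenced as stranded libraries, single-end. The authors aligned reads to mm10 with STAR, kept unique reads and counted them per Ensembl gene with HTSeq (0.6.1p1); the deposited values are raw counts. The strand setting of the counting is not given in the sources used here. Symbols, exons and coordinates came from GENCODE annotation, matched by Ensembl identifier for 35247 of 35328 rows.

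Counts were filtered with edgeR (4.0.16) filterByExpr, scaled by TMM and tested in one quasi-likelihood fit over the 16 libraries with R 4.3.3; contrasts of the 4 group means gave 7 comparisons. Benjamini-Hochberg adjustment ran over all 17830 tested genes, and an adjusted p under 0.1, the study's threshold, was a call. DESeq2 (1.42.0) was an alternative. CPM used TMM-scaled library sizes. On simulated data made for learning versus home cage under caffeine, edgeR recovered 52 of 100 genes changed by 0.5 and 81 of 100 changed by 1 on the log2 scale, with 13 false calls among 17830 genes.

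Each library counted as 1 replicate; pairs within a group differed by more than sampling noise. The p-values set each group difference against the spread between these libraries. Named in each library were receptors called in any comparison, otherwise the smallest p, and the top gene of each family per kilobase; list genes were named if called between 2 groups. Chat, Slc18a2, Slc18a3, Isl1, Nwd2, Slc6a4, Tph2, Chrm4, Chrna5, Chrnb4, Htr1a, Htr5a and Htr6 were singled out after their values were seen. Members and gene lists were chosen with earlier results of these data known. The values of 1 tested receptor are not reported here, although it is included in the counts.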

Additional observations from a re-analysis of the deposited data

Results flagged for a closer look

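Within groups of 4 libraries, the value farthest from the rest was compared with the group's range by Dixon's 95% criterion, for the 37 tested receptors, 17 transmitter genes, Ppp1r1b and Rgs16; chance flags about 1 in 20 groups. Among the receptors, 3 of 148 groups had such a library. Htr5a was at 11.2 CPM in home cage water replicate 8 (the other 3 at 12.5, 12.6 and 12.7), Htr7 at 11.8 CPM in learning water replicate 24 (7.91, 8.11 and 8.40), and Chrm5 at 0.620 CPM in home cage water replicate 11 (0.913, 0.956 and 0.967).

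Among the transmitter genes, 10 of 68 groups had such a library. Home cage water replicate 8 was flagged for Slc6a4 at 8.95 CPM and Tph2 at 15.3 CPM, the transporter and synthesis enzyme of serotonin neurons. It was also flagged for Tph1, a related enzyme of serotonin synthesis, at 2.36 CPM and Slc18a2, the vesicular monoamine transporter, at 10.1 CPM. Gch1, which makes the cofactor of Tph1 and Tph2, was flagged there at 3.22 CPM. Fev, a transcription factor of serotonin neurons looked up after these values were seen, was at 0.478 CPM in that library and 0 to 0.0642 in the other 15. Learning water replicate 24 was flagged for Slc6a4 at 0.320 CPM, Tph2 at 2.2 CPM and Bche, a cholinesterase, at 11.3 CPM. Slc18a2 was at 4.83 CPM in learning caffeine replicate 40, and Slc22a3, a low-affinity monoamine transporter, at 0.276 CPM in home cage water replicate 11.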

How the results depend on the processing

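No paired analysis was possible because the groups share no replicate number. The number of receptors called with learning under water (1) ranged from 0 to 1 when single libraries were left out, that under caffeine (1) from 0 to 4, and the average (4) from 3 to 5; the 4 receptors without home cage caffeine replicate 14 were Htr4, Adra1d, Drd2 and Chrm5. Under caffeine, DESeq2 called 2 receptors (Adra1d and Drd1), and edgeR on the 8 libraries of that comparison and an adjusted p under 0.05 each called 0. On average, the threshold of 0.05 left 2 (Htr4 and Adra1d), and DESeq2 called 6, adding Chrna5 and Chrm4. For caffeine in the home cage and on average, DESeq2 and the filter of at least 1 count in total each called 1 receptor, Htr2c, where edgeR with the standard filter called 0. Other settings, DESeq2 size factors, robust empirical Bayes and a filter of 10 counts in every library, gave the same counts of receptors. No direction reversed among the named genes. Under water DESeq2 called 427 genes in all and edgeR on 8 libraries 85, against 173. Fits on fewer libraries have less depth and fewer degrees of freedom; the causes of the other changes were not tested. Counts under 30 per library, as for Chrna2 and Chrnb4, limit precision most.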
